A study of Homo sapiens with 4 samples.

Results

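The genes described here are 9 genes of fibroblast growth factor (FGF) signalling: the receptors FGFR1, FGFR2, FGFR3, FGFR4 and FGFRL1, the co-receptor KLB, the ligands FGF2 and FGF19, and the ligand carrier FGFBP1. They were taken by name, as every probe set whose only gene symbol in the platform annotation was one of these, which gave 32 of the 54613 probe sets and 9 of 19775 genes. A probe set is the group of short array probes that reports 1 transcript or a few related ones. The comparison was between 2 arrays labelled ARID1A wild type and 2 labelled ARID1A knockout, all labelled as HuCCT1, an established line of human bile duct cancer (cholangiocarcinoma). HuCCT1 cells had been infected with a lentiCRISPR v2 virus that carries Cas9 and a guide against ARID1A. Puromycin then selected infected cells, and limiting dilution gave clones. ARID1A is a subunit of the SWI/SNF chromatin remodelling complex. The labels give neither the number of clones, nor the handling of the wild-type cells, nor whether the arrays of a group were separate cultures, so each p-value covers no more than array-to-array spread, possibly technical in origin.

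FGFs bind receptor tyrosine kinases together with heparan sulphate on the cell surface, and the receptors signal through the adaptor FRS2 to the RAS, ERK and PI3K pathways, which switch on their own inhibitors such as the sprouty proteins. The hormone-like FGF19 instead needs a klotho protein, and beta-klotho (KLB) with FGFR4 forms its receptor on hepatocytes, where it represses bile acid synthesis. FGFRL1 binds FGFs but has no kinase domain, and FGFBP1 is a secreted protein that releases FGF2 from the matrix. In bile duct cancer the class is known as a drug target because FGFR2 fusions occur there and are treated with FGFR inhibitors.

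All values are log2 values made by RMA, which puts the arrays on one scale and gives no detection call, so the lowest values do not show that a transcript is present. Array medians lay between 3.99 and 4.03, and values ran from 0.87 to 13.9. Values under 4.5 are called low here, a round limit taken from earlier work on these data. When sample identity was checked, 2 of the 4 arrays failed to match the other 2. The differences below are between the groups as labelled, and a difference of cell origin and the knockout cannot be told apart. The mRNA of ARID1A was 8.55 and 8.61 in the wild-type arrays and 6.15 and 5.95 in the knockout-labelled arrays, a log2 difference of −2.53 ± 0.11 (moderated SE, limma adjusted p = 0.00014, 3 of 4 probe sets lower). By their brightest probe sets, the bile duct keratins KRT7 and KRT19 were bright on every array, at 10.13 or more. Both were lower in the knockout-labelled arrays (log2 differences −2.32 and −0.92). Of all their probe sets, 1 of 4 for KRT7 and 1 of 2 for KRT19 were called lower. Of 9 measured cholangiocyte markers 2 were higher, SPP1 (8.58) and ANXA4 (2.88), and 4 lower, EPCAM (−4.73), CFTR (−4.40) and the 2 keratins. Of 6 endothelial markers 1 was higher, TEK (0.40), with all its values under 4.5. In the fit over all probe sets, 0 of the 2 TEK probe sets were called. Of 5 leukocyte markers 1 was lower, CD14 (−1.95), and with values under 4.5 set to 4.5 that call was lost (−0.46). Called shares were 66.7%, 16.7% and 20% for the cholangiocyte, endothelial and leukocyte markers, against 38.7% of all genes.

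The RefSeq promoters of 4 members, those with the largest changes and the bright ligand, are shown first. Each is the stretch of 250 bases before the annotated start that lies farthest upstream on GRCh38.p14. FGFR3 (chr4:1793043-1793292, plus strand) and FGFR4 (chr5:177086665-177086914, plus strand) were the members with the largest rises, FGF2 (chr4:122826581-122826830, plus strand) was the bright ligand, and FGFBP1 (chr4:15938741-15938990, minus strand) had the largest fall. Capitals mark the GC box GGGCGG and the CCAAT box, each searched on both strands, with overlapping matches each counted. The sequences read 5′ to 3′ on the strand of the gene.
FGFR3: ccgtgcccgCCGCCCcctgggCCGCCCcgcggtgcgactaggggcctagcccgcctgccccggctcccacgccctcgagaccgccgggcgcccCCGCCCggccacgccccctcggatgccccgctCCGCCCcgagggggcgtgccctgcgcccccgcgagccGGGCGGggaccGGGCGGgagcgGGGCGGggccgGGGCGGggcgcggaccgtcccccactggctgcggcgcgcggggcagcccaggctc
FGFR4: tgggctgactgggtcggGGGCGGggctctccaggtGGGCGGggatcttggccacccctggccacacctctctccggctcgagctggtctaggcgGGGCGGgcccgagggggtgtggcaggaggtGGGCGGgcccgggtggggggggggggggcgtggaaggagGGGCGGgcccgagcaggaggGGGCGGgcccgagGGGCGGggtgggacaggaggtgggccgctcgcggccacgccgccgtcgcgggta
FGF2: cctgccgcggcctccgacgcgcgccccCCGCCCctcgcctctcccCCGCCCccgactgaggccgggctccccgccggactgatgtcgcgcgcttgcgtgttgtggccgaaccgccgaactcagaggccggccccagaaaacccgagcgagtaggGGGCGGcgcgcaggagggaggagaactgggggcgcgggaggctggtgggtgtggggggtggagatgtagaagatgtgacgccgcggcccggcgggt
FGFBP1: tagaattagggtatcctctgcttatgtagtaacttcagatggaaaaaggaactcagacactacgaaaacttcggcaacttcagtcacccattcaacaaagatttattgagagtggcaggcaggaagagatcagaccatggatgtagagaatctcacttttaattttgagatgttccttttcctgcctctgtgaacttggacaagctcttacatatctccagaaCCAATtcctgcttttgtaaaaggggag

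The promoters of FGFR3 and FGFR4, the receptors that rose most, held many GC boxes, the core motif of Sp1-type factors. The FGFR3 stretch held 8 and the FGFR4 stretch 7, where 0.608% and 1.16% of 27303 promoters of the same length held as many. FGF2 had 3 and FGFBP1 had 0, and 42.2% of all promoters held at least 1. The GC content of the FGFR3 stretch was 86.8% and that of FGFR4 79.6%, against 40.8% for FGFBP1 and a median of 57.6%. Of the other members searched, FGFR2 had 3 GC boxes, FGFRL1 4 and KLB 0. FGFR4 had 2 annotated starts and FGFR2 had 5, and the stretches before their other starts were not searched. FGFR1, the receptor with the next largest rise (1.57), and FGF19 were left out of the search, so their GC boxes were not counted. The search skipped chromosome 8, where FGFR1 lies, and had no usable entry for FGF19. Whether many GC boxes go with a rise was not tested. The FGFR2 stretch had 78.4% GC, and its level did not pass the test. A TATA box (TATAAA, in 11.2% of promoters) or an AP-1 motif (TGANTCA, in 6.57%) was in 0 of the 7 stretches, and the CCAAT box (in 33.0% of promoters) was found once each in FGFR2, FGFRL1 and FGFBP1. These are matches of letters in 1 window and do not show binding.

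Most of the members differed between the groups: FGFR1, FGFR3, FGFR4, FGFRL1 and KLB were higher in the knockout-labelled arrays and FGF2, FGF19 and FGFBP1 lower, with KLB and FGF19 low in both groups. With each gene represented by its brightest probe set, 5 of 9 members were higher, 3 were lower and 1, FGFR2, was not called (limma, adjusted p under 0.05 over 19775 genes). The shares over all genes were 38.7% called, 21.5% higher and 17.2% lower. The groups did not overlap in 8 of the 9 members, against 66.4% of all genes. The median difference of the members was 0.64 and that of all genes 0.06, on the log2 scale. Of the 32 member probe sets, 10 were higher, 4 lower and 18 not called, where the shares over all probe sets were 13.9% higher and 13.0% lower (26.9% in all). Of the 32 member probe sets 18 did not overlap between the groups, against 60.3% of all probe sets, and 16 had a mean under 4.5 in both groups. Without wild-type replicate 1 or wild-type replicate 2, 2 member probe sets were called higher and 2 lower, and fewer probe sets were called on the whole array too (1199 and 1400 higher, 1428 and 1376 lower).

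**Figure D1:**
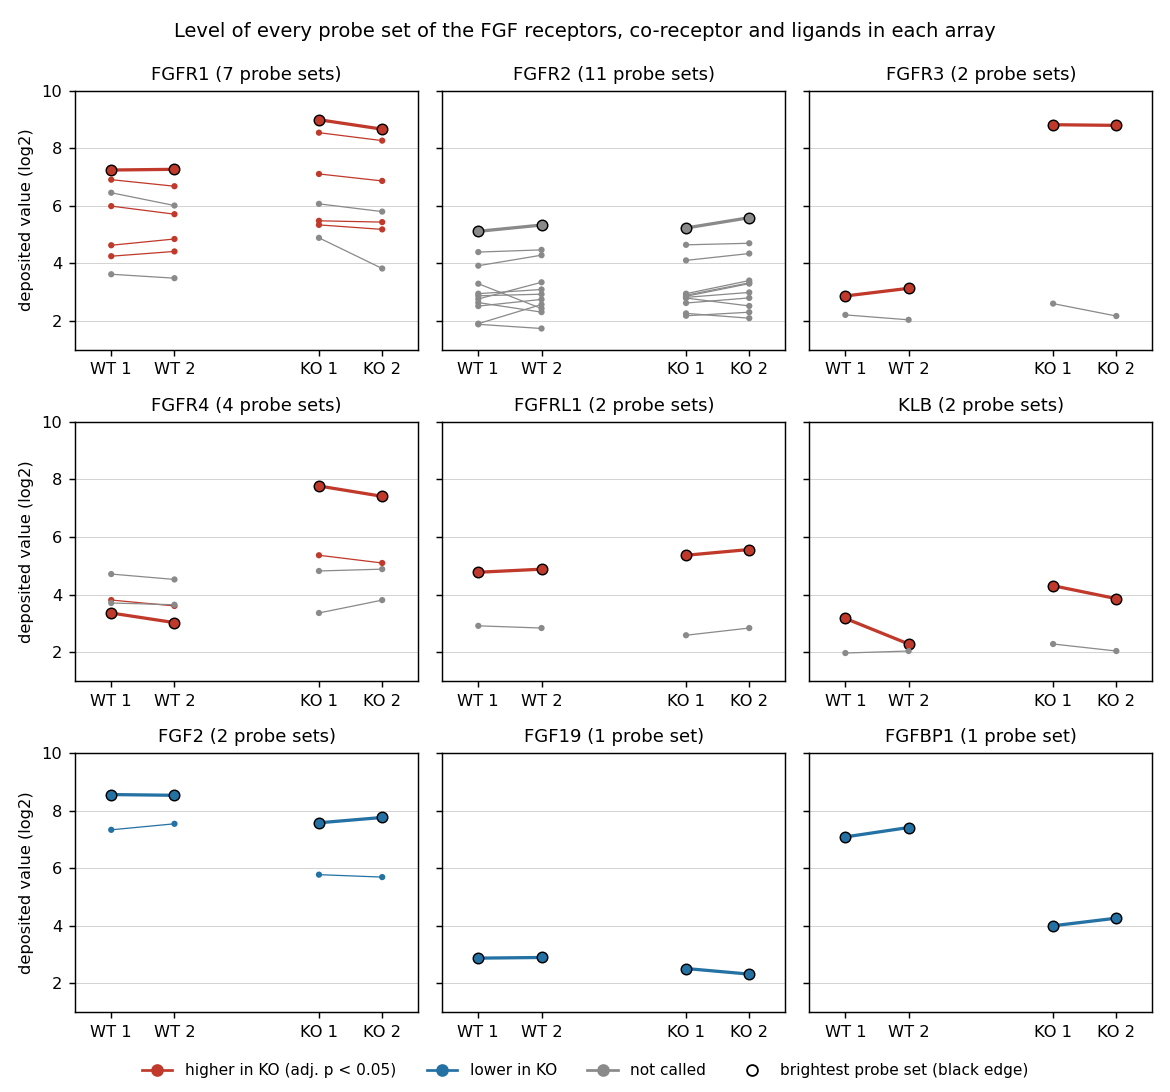
Deposited log2 value (vertical axis) of every member probe set in each of the 2 wild-type (WT) and 2 knockout-labelled (KO) arrays, with a line joining the arrays of a group and a black edge on the brightest probe set of a gene. FGFR3 rises from about 3 to 8.79 or more in 1 of its 2 probe sets, and all 11 FGFR2 probe sets stay between 1.74 and 5.59.

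FGFR3, a receptor kinase that is known for activating mutations and fusions in bladder cancer, had the largest rise of the members. Its brightest probe set read 2.87 and 3.13 in the wild-type arrays and 8.82 and 8.79 in the knockout-labelled arrays. The wild-type arrays were thus low and the knockout-labelled arrays high, with no overlap. The log2 difference was 5.81 ± 0.13 (SE, n = 2 each, limma adjusted p = 2.57e-05), or 56.0-fold on the deposited scale. Since the wild-type values were low, the size of this fold rests on values that may not be measured levels. With every value under 4.5 set to 4.5 the difference was 4.31, or 19.8-fold (limma adjusted p = 0.000447). Both wild-type values are then 4.5, so that p-value holds no spread between the wild-type arrays. The group mean moved from percentile 33.3 to percentile 92.9 of all probe sets. The other FGFR3 probe set stayed low, at 2.21 and 2.04 against 2.60 and 2.17 (adjusted p = 0.38 over all probe sets by limma), and the mean of both gave a difference of 3.03. Where the 2 probe sets lie in the transcript was not determined.

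FGFR4, the receptor that pairs with KLB, also went from low to bright. Its brightest probe set read 3.36 and 3.03 in the wild type and 7.77 and 7.41 in the knockout-labelled arrays, a log2 difference of 4.40 ± 0.18 (limma adjusted p = 0.000109), or 21.1-fold. The wild-type values were low here too, and with values under 4.5 set to 4.5 the difference was 3.09, or 8.53-fold (limma adjusted p = 0.0139). That p-value too holds no spread between the wild-type arrays, since both are then 4.5. A further probe set rose from 3.81 and 3.60 to 5.37 and 5.10, a difference of 1.52 ± 0.15. In that one the knockout-labelled arrays were only moderately above the low range. The remaining 2 of the 4 FGFR4 probe sets were not called, with differences of 0.23 and −0.09. The mean over the 4 probe sets gave a difference of 1.52.

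KLB, the co-receptor of FGF19 and FGF21, was higher in the knockout-labelled arrays but low throughout. It read 3.17 and 2.28 in the wild type and 4.31 and 3.86 in the knockout-labelled arrays, a log2 difference of 1.36 ± 0.33 (limma adjusted p = 0.0271). All 4 values lay under 4.5, and the wild-type arrays were 0.89 apart. The call was lost without wild-type replicate 2 (0.91, adjusted p = 0.107), without knockout replicate 1 (1.13, adjusted p = 0.168) and without knockout replicate 2 (1.58, adjusted p = 0.102), and the second probe set was not called, with a difference of 0.16. The mean of both probe sets gave 0.76. The other klotho, KL, read 1.45 to 1.64 over the 4 arrays and was not called. FGFR4 and KLB are hepatocyte genes, and some markers of hepatocytes were higher as well. Of 7 measured hepatocyte markers 4 were higher and 0 lower (57.1% called, against 38.7% of all genes). The summed linear level of the list was 130 to 132 in the wild type and 253 to 304 in the knockout-labelled arrays. CPS1, a urea cycle enzyme, rose by 2.89 ± 0.15, FGB, a fibrinogen chain, by 2.20 ± 0.15 and TTR, a plasma carrier protein, by 0.45 ± 0.12. ALB (albumin), the defining product of hepatocytes, read 1.77 and 1.81 against 4.09 and 2.95, all in the low range. It was higher in 1 of its 4 probe sets, and was not called (0.07) with probe sets ending in _x_at or _s_at left out. The other 3 markers were not called, with differences between −0.18 and 0.11. Leaving out either wild-type array reduced the count of 4 to 2, with TTR and ALB no longer called, and FGB was not called with values under 4.5 set to 4.5 (0.59, adjusted p = 0.148). In these bulk samples a change in the share of a cell type and a change in RNA per cell cannot be told apart, and the part of these markers in the result was not tested.

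FGFR1, the receptor usually found on mesenchymal cells, was moderately bright in both groups and higher in the knockout-labelled arrays. Its brightest probe set read 7.24 and 7.27 in the wild type and 8.99 and 8.66 in the knockout-labelled arrays, a difference of 1.57 ± 0.14 (limma adjusted p = 0.00101), or 2.97-fold. The 2 wild-type arrays lay 0.02 apart and the 2 knockout-labelled arrays 0.33 apart, so the groups were clearly separate. Of its 7 probe sets 5 were called, all higher, with differences from 0.52 to 1.61. The other 2 were not called, with differences of −0.30 and 0.80. The mean over all 7 gave a smaller difference of 0.92 ± 0.14, still past the threshold (adjusted p = 0.00327).

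FGFR2, the receptor whose fusions are drug targets in bile duct cancer, was dim and did not pass the test in any of its 11 probe sets. The brightest read 5.11 and 5.33 in the wild type and 5.23 and 5.59 in the knockout-labelled arrays, so the groups overlapped. The difference was 0.19 ± 0.16 (limma adjusted p = 0.44), with a 95% interval of −0.23 to 0.60. Over the 11 probe sets the differences ran from 0.00 to 0.37, none below 0, and adjusted p over all probe sets from 0.101 to 0.996. In 9 of the 11 every value lay under 4.5, and in 9 the groups overlapped. The brightest one ends in _x_at, a type that can hybridise with several transcripts. Without that type and the _s_at type the brightest FGFR2 probe set gave 0.12.

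Epithelial cells make the IIIb form of FGFR2 and mesenchymal cells the IIIc form, and the splicing factors ESRP1 and ESRP2 favour IIIb. Of 7 measured regulators of FGFR2 splicing, ESRP1 was lower, from 8.36 and 8.63 to 1.91 and 2.16 (difference −6.46 ± 0.15, limma adjusted p = 2.57e-05, in both of its probe sets). The other 6, among them PTBP1 and RBFOX2, were not called, with differences between −0.02 and 0.32. ESRP2 was not among the 7 measured. The probe sets were not assigned to FGFR2 forms, so no ratio of the forms can be given. Epithelial markers were lower with ESRP1: 4 of 6 fell, with log2 differences of −4.85 for CLDN7, −4.73 for EPCAM, −4.63 for RAB25 and −3.51 for CDH1 (E-cadherin), while KRT8 rose by 0.82. Against 38.7% of all genes, 83.3% of these markers were called. Their summed linear level was 13370 to 13626 in the wild type and 8596 to 9040 in the knockout-labelled arrays, and the part of these markers in the FGFR2 values was not tested. With a variance trend in the fit, 3 of the splicing regulators were called higher, and 2 with dim genes removed.

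FGFRL1, the receptor without a kinase domain, was slightly higher. Its brightest probe set read 4.78 and 4.88 against 5.37 and 5.57, a difference of 0.64 ± 0.12 (limma adjusted p = 0.0108). The gap between the groups was larger than that within them, at most 0.20. The second probe set was low and not called (−0.16). The call was lost with the mean of both probe sets (0.24, adjusted p = 0.169), without wild-type replicate 1 (0.58, adjusted p = 0.103) and without wild-type replicate 2 (0.69, adjusted p = 0.0759).

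**Figure D2:**
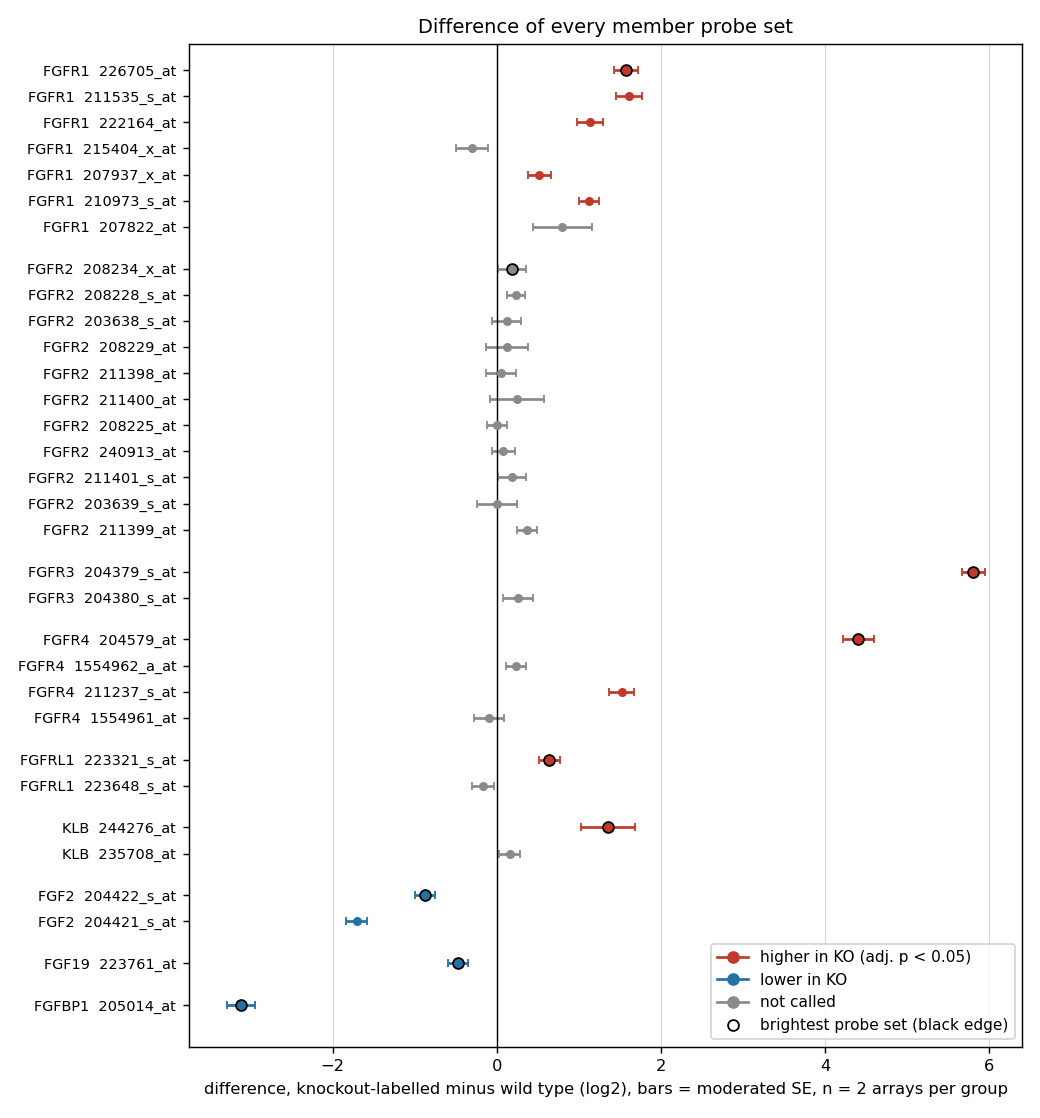
Log2 difference, knockout-labelled minus wild type (horizontal axis), of the 32 member probe sets with the moderated SE as bars (n = 2 arrays per group), and a black edge on the brightest of each gene. FGFR3 and FGFR4 each have a probe set above 4 and another near 0, while both FGF2 probe sets lie below 0.

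FGF2 (basic FGF), a growth factor of mesenchymal and many tumour cells, was the bright ligand and was lower in the knockout-labelled arrays. The brightest probe set read 8.56 and 8.53 in the wild type and 7.58 and 7.76 in the knockout-labelled arrays, a difference of −0.88 ± 0.11 (limma adjusted p = 0.00299), or 1.84-fold lower. Its second probe set fell further, from 7.34 and 7.54 to 5.78 and 5.69 (−1.71 ± 0.13, adjusted p = 0.00116 over all probe sets by limma), or 3.26-fold lower. In both the groups were apart by more than the arrays of a group. The level was 5.69 or more in every array, so FGF2 mRNA remained well within the range of the array in both groups. NUDT6, the gene known to overlap FGF2 on the opposite strand, differed by −0.03 and was not called. Fibroblasts also express FGF2, and of 8 fibroblast markers 2 were lower, LUM (−5.24 ± 0.12) and COL1A1 (−4.76 ± 0.09), and PDGFRA was higher (3.84 ± 0.17). The other 5 were not called, with differences between −0.25 and 0.62, so the list did not move together. Its share called was 37.5%, against 38.7% of all genes. The summed linear level of that list was 668 to 694 in the wild type and 200 to 201 in the knockout-labelled arrays. COL1A1 was its brightest gene in the wild type, at 8.98 and 8.95 against 4.22 and 4.18, and weighs most in the wild-type sum. With the _x_at and _s_at types left out 0 of these markers was called lower. LUM was then not called (−0.10), and COL1A1 had no probe set left to fit. The part of these markers in the result was not tested.

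FGF19, the bile acid hormone, was low in all arrays. It read 2.88 and 2.90 in the wild type and 2.52 and 2.32 in the knockout-labelled arrays, a difference of −0.47 ± 0.11 (limma adjusted p = 0.0253). All 4 values were low, so the call is a difference between low values. It was lost without wild-type replicate 1 (−0.48, adjusted p = 0.142), without wild-type replicate 2 (−0.46, adjusted p = 0.154) and without knockout replicate 2 (−0.37, adjusted p = 0.0746).

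FGFBP1, the FGF-releasing carrier known from squamous and other epithelial tumours, had the largest fall of the members. It read 7.09 and 7.42 in the wild type and 4.0 and 4.27 in the knockout-labelled arrays, a difference of −3.12 ± 0.16 (limma adjusted p = 0.000204), or 8.69-fold lower. With values under 4.5 set to 4.5 the difference was −2.75, or 6.74-fold lower. The wild-type arrays were bright and the knockout-labelled arrays low, with gaps of 0.33 and 0.26 within the groups. It has 1 probe set, so no further one can be set beside it. Its relative FGFBP3 was higher, from 3.64 and 3.90 to 5.77 and 5.55 (1.89 ± 0.14, limma adjusted p = 0.000604), and FGFBP2 stayed between 1.87 and 2.03.

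The other secreted FGFs gave almost no change. Of 16 further ligands 1 was called, FGF9, a ligand of FGFR3 among others, at 2.54 and 2.69 against 2.96 and 3.0 (0.37 ± 0.10, limma adjusted p = 0.0456). None of the other 15 was called, and 14 of the 16 had all values under 4.5. The call of FGF9 was lost without each of the 4 arrays in turn (adjusted p from 0.103 to 0.223), and without knockout replicate 1 another 3 ligands were called higher. Of the 4 intracellular FGF homologous factors, which bind sodium channels and are not secreted, FGF13 fell from 5.92 and 6.12 to 2.03 and 2.11 (−3.95 ± 0.12). FGF12 was higher, from 2.41 in both wild-type arrays to 4.27 and 3.63 (1.54 ± 0.22), with all values under 4.5, and lost its call without wild-type replicate 1 (adjusted p = 0.0713) or 2 (adjusted p = 0.0700).

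The surface proteins that carry heparan sulphate changed in both directions. Of 16 measured co-receptors, binding proteins and carriers 7 were higher, 3 lower and 6 not called, with a median difference of 0.05. The share called was thus 62.5%, against 38.7% of all genes. SDC2 (syndecan-2) rose from 6.09 and 6.26 to 8.98 and 8.93 (2.78 ± 0.11, limma adjusted p = 9.24e-05, all 3 probe sets), while SDC4 (syndecan-4) fell from 10.92 and 10.85 to 8.78 and 8.62 (−2.18 ± 0.11). GPC4, a glypican, fell by 1.98 ± 0.10 in both probe sets. FGFBP3, given above, also belonged to this list.

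Enzymes that build and trim heparan sulphate also went both ways, with 4 of 11 higher, 5 lower and 2 not called (median 0.17). Here 81.8% were called, against 38.7% of all genes. HS6ST2, a 6-O-sulphotransferase, rose from 2.73 and 2.11 to 8.39 and 8.52 (6.04 ± 0.22, limma adjusted p = 8.18e-05, all 3 probe sets), beside the 5.81 of FGFR3. SULF2, which removes 6-O-sulphate at the cell surface, rose by 2.61 ± 0.13. HPSE (heparanase), which cleaves the chains, fell by 3.91 ± 0.16, and HS3ST1, a 3-O-sulphotransferase, fell by 3.81 ± 0.16. The count of 4 higher was 2 without wild-type replicate 1 and 2 without wild-type replicate 2.

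Inside the cell, the measured adaptors and kinases changed in both directions. Of 16 measured transducers 4 were higher, 3 lower and 9 not called (median 0.20). The share called was 43.8%, against 38.7% of all genes, and the adaptor FRS2 was not among the 16. SHC1, an adaptor of many receptor kinases, rose from 9.63 and 9.79 to 12.18 and 12.19 (2.48 ± 0.11, limma adjusted p = 0.000119). PIK3R1, a PI3K subunit, rose by 0.86 ± 0.10 and GAB1, a docking protein, by 0.69 ± 0.16, and CBL, a ubiquitin ligase that downregulates receptors, fell by 0.69 ± 0.09. GAB1 lost its call without wild-type replicate 1 (adjusted p = 0.109), knockout replicate 1 (0.122) or knockout replicate 2 (0.0906), and differed by 0.07 with values under 4.5 set to 4.5. CBL lost its call without wild-type replicate 1 (adjusted p = 0.0521). The count of 4 higher was 2 without wild-type replicate 1, knockout replicate 1 or knockout replicate 2, and the count of 3 lower was 0 without wild-type replicate 1 and 1 without wild-type replicate 2 or knockout replicate 2.

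Among the feedback inhibitors of FGF and ERK signalling 6 of 12 were higher, 1 was lower and 5 were not called (median 0.40). Of this list 58.3% were called, against 38.7% of all genes. SPRY1 (sprouty-1) rose from 5.31 and 5.42 to 7.36 and 6.72 (1.67 ± 0.23), DUSP5, an ERK phosphatase, by 1.34 ± 0.11, IL17RD (Sef) by 1.19 ± 0.13 and SPRY4 by 1.17 ± 0.13, each past the threshold in the limma fit. DUSP6, another ERK phosphatase and a usual readout of FGF signalling, was not called at 9.52 and 9.54 against 9.51 and 9.55. DUSP4 was the one that fell, by 0.85 ± 0.21, and that call was lost without either wild-type replicate or knockout replicate 2, leaving a count of 0. SPRY1 lost its call without wild-type replicate 1 (adjusted p = 0.0661) or 2 (adjusted p = 0.0580).

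The transcription targets of ERK did not move together. Of 13 measured targets 3 were higher, 5 lower and 5 not called (median −0.28), or 61.5% called against 38.7% of all genes. ETV5, an ETS factor induced by FGF, rose from 7.29 and 7.46 to 8.71 and 8.62 (1.29 ± 0.11, limma adjusted p = 0.000888), and its relative ETV1 rose by 1.06 ± 0.18. The third member of that family, ETV4, was not called (−0.06). FOSL1, an AP-1 subunit, fell by 1.13 ± 0.10 and EPHA4, an ephrin receptor, by 1.07 ± 0.17. EPHA4 lost its call without wild-type replicate 1 (adjusted p = 0.0782) or 2 (adjusted p = 0.0822). The count of 5 lower was 2 without wild-type replicate 1 and 2 without wild-type replicate 2, and the count of 3 higher was 1 without wild-type replicate 1. ETV1 was not called with the mean of its probe sets (0.28, adjusted p = 0.134), nor without wild-type replicate 1 (adjusted p = 0.0597) or either knockout replicate (adjusted p = 0.0535 and 0.0817).

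In the bile acid axis around FGF19, 2 of 11 measured genes were higher, 1 was lower and 8 were not called (median −0.02). That is 27.3% called, against 38.7% of all genes, and 9 of the 11 had all values under 4.5. NR0B2 (SHP), a repressor of bile acid synthesis, rose from 4.77 and 4.59 to 6.0 and 6.35 (1.5 ± 0.15, limma adjusted p = 0.00161). SLC51B, a subunit of the bile acid exporter, was higher by 0.94 ± 0.10 with all values low. CYP27A1, a sterol hydroxylase, fell by 0.97 ± 0.25 and lost its call without wild-type replicate 1 or 2 or knockout replicate 1 (adjusted p = 0.218, 0.126 and 0.0936). CYP7A1, the gene that FGF19 represses in hepatocytes, read 1.48 to 1.66 in the 4 arrays and was not called.

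The neighbours of the members on their chromosomes were set beside them, with 5 measured genes on each side in RefSeq order. FGFR3 on chromosome 4 lay among genes that were higher too: 9 of its 10 neighbours were higher, 0 lower and 1 not called, with a median difference of 1.28 against 0.06 for all genes. TACC3, the usual fusion partner of FGFR3, was higher by 1.36, SLBP by 1.4 and FAM53A by 2.57, and LETM1 on the other side by 0.84. Their differences ran from 0.22 to 2.57, all smaller than the 5.81 of FGFR3 itself. FGFR4 on chromosome 5 had neighbours of both directions, with 3 of 10 neighbours higher and 2 lower (median 0.00), its nearest being ZNF346 at 0.27, not called, and NSD1 at 0.76. For FGFR1 on chromosome 8, 3 neighbours were higher and 2 lower (median −0.13), with LETM2 at −0.60 and TACC1 at −0.33, the latter not called. FGFR2 on chromosome 10 was not called, but 4 of its 10 neighbours were higher and 1 lower (PLPP4, −1.07), and on the side of ATE1 (0.91) the genes TACC2, BTBD16 and PLEKHA1 were higher by 2.19 to 2.48.

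FGF19 lies on chromosome 11 in a cluster with CCND1, FGF4, FGF3 and ANO1 that is often amplified in tumours. Of its 10 neighbours 4 were lower and 0 higher, led by ANO1, a chloride channel gene, at −4.98, with MYEOV at −2.20. CCND1 (cyclin D1) was bright and not called (−0.28), and LTO1, next to FGF19, was lower (−0.42). Near FGFBP1 on chromosome 4, its immediate neighbours CD38 and FGFBP2 were not called, while PROM1, 1 gene further, was lower (−4.0). FGF2 had 1 neighbour higher, SPRY1, and 4 lower, and its nearest on the other side was BBS12 at −1.07. KLB had 5 higher and 2 lower, with RFC1 at 0.42 and RPL9, not called, at 0.19 next to it. FGFRL1 had 4 higher and 0 lower, with IDUA (0.34) and RNF212 (0.08), both not called, next to it.

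**Figure D3:**
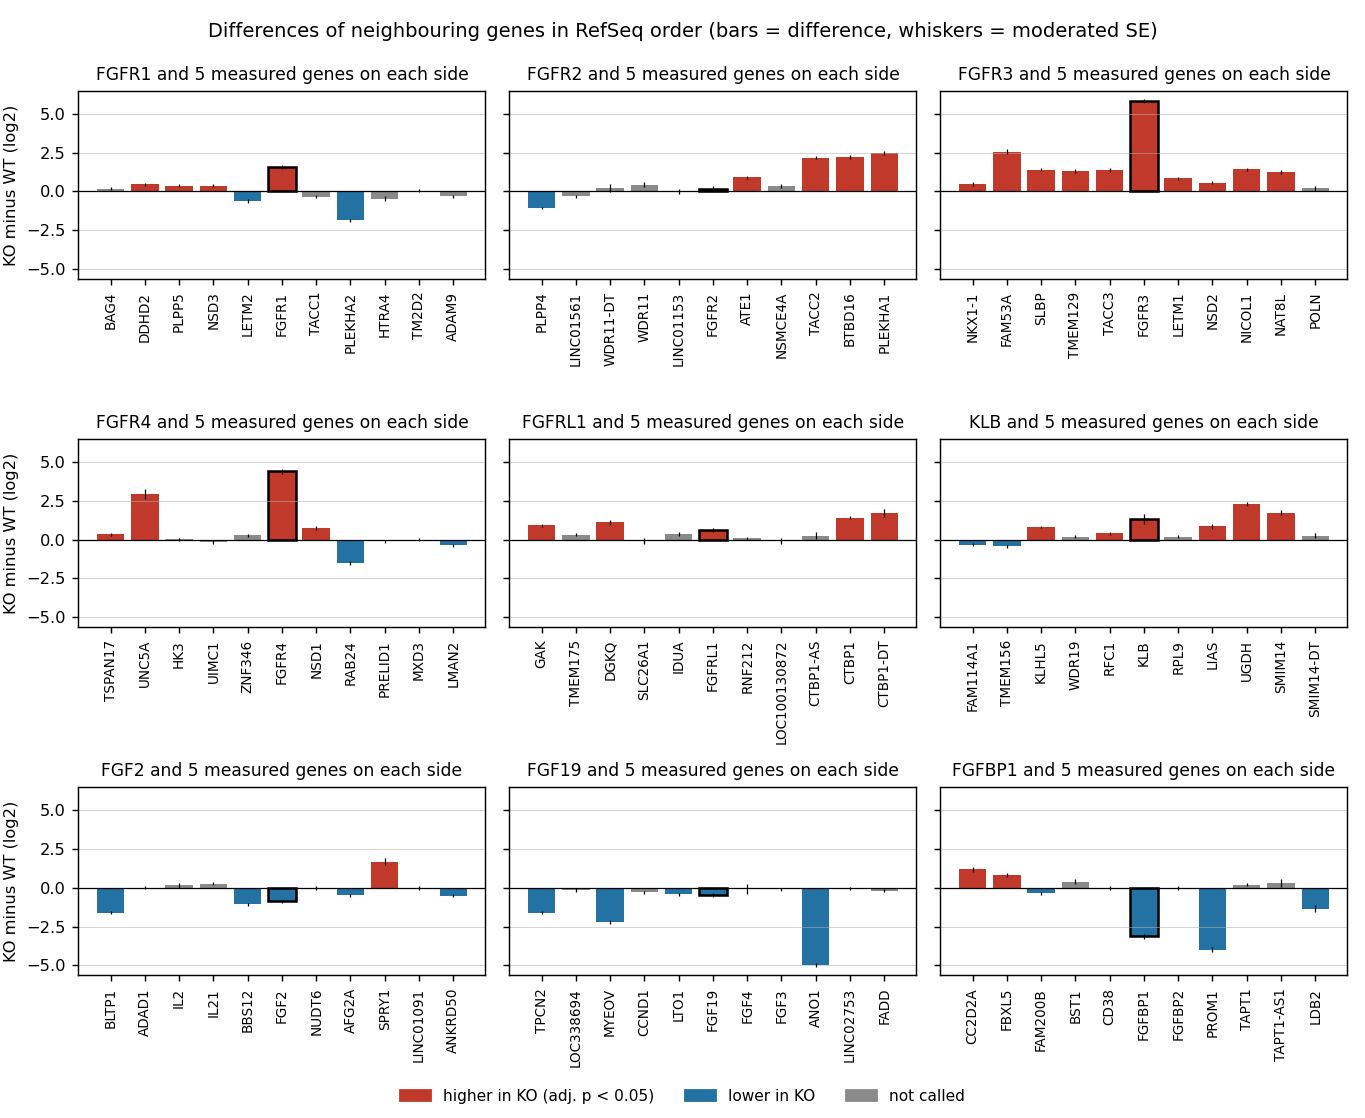
Log2 difference, knockout-labelled minus wild type (vertical axis), of each member (black outline) and of the 5 measured genes on each side in RefSeq order, with the moderated SE as whiskers (n = 2 arrays per group). Around FGFR3 9 of 10 neighbours are higher, while FGFR4 and FGFBP1 stand among neighbours of both directions.

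The genes whose pattern over the 4 arrays was most like that of a member were found by the smallest root mean square distance between deviations from each gene's own mean. For FGFR3 these were ROBO1 (log2 difference 5.69), CNTNAP3P2 (5.74) and PDK4 (5.89). For FGFBP1 they were UAP1L1 (−3.12), INPP1 (−3.18) and EPHA1 (−3.07). With 4 arrays in 2 groups, genes with a difference of like size come out as most alike.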

How the data were processed

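Per the submitters' processing notes, the deposited log2 values were made by the authors with RMA and the affy package, no version stated, from Affymetrix 3′ arrays. Probe sets were named by the platform annotation of 2016, 41091 with 1 symbol. In this re-analysis each gene was taken as its probe set with the highest mean, and the groups were tested by lmFit and eBayes of limma 3.58.1 under R 4.3.3, with Benjamini-Hochberg adjustment over all 19775 genes, and again over all 54613 probe sets. The code of the fit was run on simulated data with known changes and independent noise, which does not show how it performs on these arrays. Named were all members, up to 4 called genes per list by size, up to 5 neighbours a side and the 3 genes most alike to the largest rise and fall. Others were chosen after their values were seen: KRT7, KRT19, KRT8, KL, FGFBP2, DUSP6, DUSP4, ETV4, CYP7A1, PTBP1 and RBFOX2. Members and lists were chosen with earlier results of these data known. List genes measured by no probe set with 1 symbol were not analysed here. Arrays have no read depth, and precision is limited by their number. Alternatives were another variance model, other choices of probe sets, filters and a floor on dim values, other scaling, a replicate block and leaving out each array.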

Additional observations from a re-analysis of the deposited data

How the results depend on the processing

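Differences of FGFR1, FGFR2, FGFR3, FGFR4, FGF2 and FGFBP1 kept their direction and their side of the threshold under every alternative that could be computed for them. With values under 4.5 set to 4.5 FGFR3 differed by 4.31, FGFR4 by 3.09 and FGFBP1 by −2.75, all smaller than as deposited. FGFRL1 was not called with the mean of its probe sets (0.24) or with values under 4.5 set to 4.5 (0.64, adjusted p = 0.0618). With an array left out it ranged from 0.54 to 0.74 and was called without either knockout array but not without either wild-type array. With that floor KLB and FGF19 had a difference of 0, since all their values were low, and leaving out an array gave 0.91 to 1.8 for KLB and −0.57 to −0.37 for FGF19. With the floor the genes called higher numbered 2788 of 19775 and the probe sets called lower 4591 of 54613, and 6 member probe sets were higher. Leaving out an array gave 2055 to 3402 genes higher and 1763 to 2818 lower, 1199 to 4835 probe sets higher and 1376 to 5495 lower, and 2 to 8 member probe sets higher and 2 to 3 lower. The replicate numbers did not pair the arrays (correlation of same-numbered deviations −0.10 over genes, 0.06 over probe sets). With the replicate block 3675 genes were higher and 3004 lower, and FGF19 lost its call (−0.47, adjusted p = 0.0551). With crossed numbers, added after seeing the data, 4069 were higher and 3232 lower, and KLB was not called (1.36, adjusted p = 0.0662). Of the members, FGFR3, FGFRL1 and FGF2 have no probe set outside the _x_at and _s_at types, and genes under a percentile were not fitted there. The cause of these losses was not tested.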
